A study of Mus musculus with 6 samples.

Results

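The genes described here are 8 of the 24675 genes measured by name in tissue beside the dorsal aorta of the mouse embryo: 5 genes known from the notochord (Noto, Foxa1, Foxa2, Cd24a and Car3) and 3 Sox transcription factors of cartilage formation (Sox5, Sox6 and Sox9). They were taken by gene symbol, from a list drawn up with earlier results of these data known, as a check of whether notochord-side tissue shows in the dorsal cut, and all 8 were found, each with 1 probe set. Tissue came from C57BL/6 embryos at embryonic day 10.5 and was hybridised to Affymetrix mouse Gene 2.0 ST arrays: 3 ventral arrays (tissue beneath the aorta) and 3 dorsal arrays (tissue between the aortic roof and the notochord). Both regions were cut by laser from stained cryosections of the same unfixed embryos, with no genetic change or treatment named for either. Each sample entered amplification with 200 to 1000 pg of RNA, and the labels do not say how many embryos or sections made up a sample.

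The notochord is a rod of mesoderm under the neural tube that secretes the signalling protein Sonic hedgehog and patterns its neighbours. The forkhead factor Foxa2 is required for its formation, and Noto is a homeobox gene of the node and the notochord. Sox9 is required for the commitment of mesenchyme to cartilage, and Sox5 and Sox6 act beside it to keep cartilage matrix genes active, both in the condensing sclerotome around the notochord and in the sheath of the notochord itself. The dorsal cut borders the notochord, so the comparison asks whether its genes and those of the surrounding cartilage-forming mesenchyme were higher there than beneath the aorta.

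Of the 8 genes, 0 differed between ventral and dorsal tissue at an adjusted p under 0.05 in limma, and 0.00% of all genes did. At an unadjusted p under 0.05 there was 1 of the 8, Cd24a, against 10.2% of all genes in the same fit and 4.32% with ventral higher. The ventral and dorsal arrays overlapped for all 8 genes, whereas they did not overlap for 18.7% of all genes. Ventral values were on average lower for 6 of the 8 genes, and 58.0% of all genes had a negative difference; the median difference of the 8 was -0.19 on the log2 scale, against -0.06 over all genes.

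The start of Noto and Foxa2, the 2 defining notochord factors of the set, is shown so that the genes behind the values can be seen. RefSeq promoter windows on GRCm38.p6, from 250 bases before to 50 after an annotated start, were at hand for 5 of the 8 genes. They were searched on both strands for a forkhead core (TGTTTNC) and a Sox core (ACAANG), which occur in 20.5% and 41.2% of all 32851 such windows, and these matches can overlap in other windows but do not in the 2 printed. Capitals mark the matches, which describe letters and not bound sites. The Noto window lies at chr6:85423636-85423935 on the plus strand and holds 1 forkhead match, and the Foxa2 window, the most upstream of its 3, lies at chr2:148046920-148047219 on the minus strand and holds 1 Sox match.
Noto: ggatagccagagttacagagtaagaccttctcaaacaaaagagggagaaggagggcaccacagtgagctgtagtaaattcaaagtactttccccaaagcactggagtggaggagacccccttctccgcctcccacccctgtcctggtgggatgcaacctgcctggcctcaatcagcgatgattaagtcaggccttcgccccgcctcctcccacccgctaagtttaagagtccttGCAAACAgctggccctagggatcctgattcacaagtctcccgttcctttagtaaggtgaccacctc
Foxa2: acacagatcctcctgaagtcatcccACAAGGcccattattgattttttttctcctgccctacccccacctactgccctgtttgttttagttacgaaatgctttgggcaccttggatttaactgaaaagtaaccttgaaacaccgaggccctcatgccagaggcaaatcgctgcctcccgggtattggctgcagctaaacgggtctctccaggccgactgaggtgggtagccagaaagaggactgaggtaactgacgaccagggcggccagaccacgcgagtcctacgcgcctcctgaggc

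The values are log2 signals from RMA, for which the authors' software corrected background, gave the arrays a common distribution and summarised the probes of each gene. The array medians lay between 3.20 and 3.27. Ventral arrays correlated with each other at 0.887 to 0.898 across genes and dorsal arrays at 0.813 to 0.828, and the standard deviation of a gene was larger among the dorsal arrays for 66.0% of all genes. In bulk tissue, fewer cells of a type and less RNA per cell cannot be told apart.

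Noto, the homeobox factor of the notochord, had log2 signals of 3.98, 3.61 and 3.61 in ventral arrays 1, 2 and 3, against 3.85, 4.47 and 3.48 in the dorsal arrays. Only dorsal array 2 lay above every ventral array, and dorsal array 3 was the lowest of the 6. The mean was 3.73 ± 0.21 in ventral and 3.93 ± 0.50 in dorsal tissue (SD, n = 3 each). The difference, ventral minus dorsal, was -0.20 ± 0.25 (SE) on the log2 scale, with an adjusted p of 0.786 in limma. Its sign rested on dorsal array 2, since without that array the difference was 0.07.

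Foxa2, the forkhead factor of notochord, floor plate and endoderm, had the most negative difference of the 8 genes with all arrays. Sox9 took that place after cyclic loess (-0.31 for Sox9, -0.30 for Foxa2), with array weights and in some fits without arrays. Noto took it in other such fits, with -0.43 without dorsal array 3. The log2 signals of Foxa2 were 3.54, 3.69 and 3.85 in ventral arrays 1, 2 and 3, against 3.74, 4.27 and 4.01 in the dorsal arrays. The ventral array was the lower one in all 3 pairs of equal number, as it was for 21.8% of all genes, although dorsal array 1 lay below ventral array 3. Means of 3.69 ± 0.16 in ventral and 4.004 ± 0.26 in dorsal tissue (SD, n = 3 each) gave a difference of -0.31 ± 0.18 (SE), a 1.24-fold lower ventral signal with an adjusted p of 0.581 in limma. The 95% interval reached from -0.76 to 0.14.

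Foxa1, the related factor of endoderm that is also expressed in notochord, went the other way on average. It had log2 signals of 3.39, 2.62 and 3.05 in ventral arrays 1, 2 and 3, against 3.35, 2.90 and 2.17 in the dorsal arrays. The highest array of each region was array 1, and dorsal array 3 had the lowest value. The average difference was 0.21 ± 0.26 (SE; adjusted p 0.779 in limma). Without dorsal array 3 the difference was -0.10, and without ventral array 1 it was 0.03.

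Cd24a, a small glycoprotein of the cell surface that is used as a marker of notochord cells and is also carried by neurons, epithelia and red cell precursors, was the gene of the set with the smallest p. It had log2 signals of 4.58, 5.65 and 5.03 in ventral arrays 1, 2 and 3, against 4.41, 5.07 and 4.35 in the dorsal arrays. The ventral array was the higher one in all 3 pairs of equal number, as for 13.3% of all genes, while dorsal array 2 alone made the regions overlap. The means were 5.09 ± 0.54 in ventral and 4.61 ± 0.40 in dorsal tissue (SD, n = 3 each), a 1.39-fold higher ventral signal. The difference was 0.48 ± 0.19 (SE), with an unadjusted p of 0.0466 and an adjusted p of 0.485 in limma. Without the replicate number as a block, the unadjusted p was 0.169. The mean of this notochord-associated gene was thus lower on the notochord side.

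**Figure D1:**
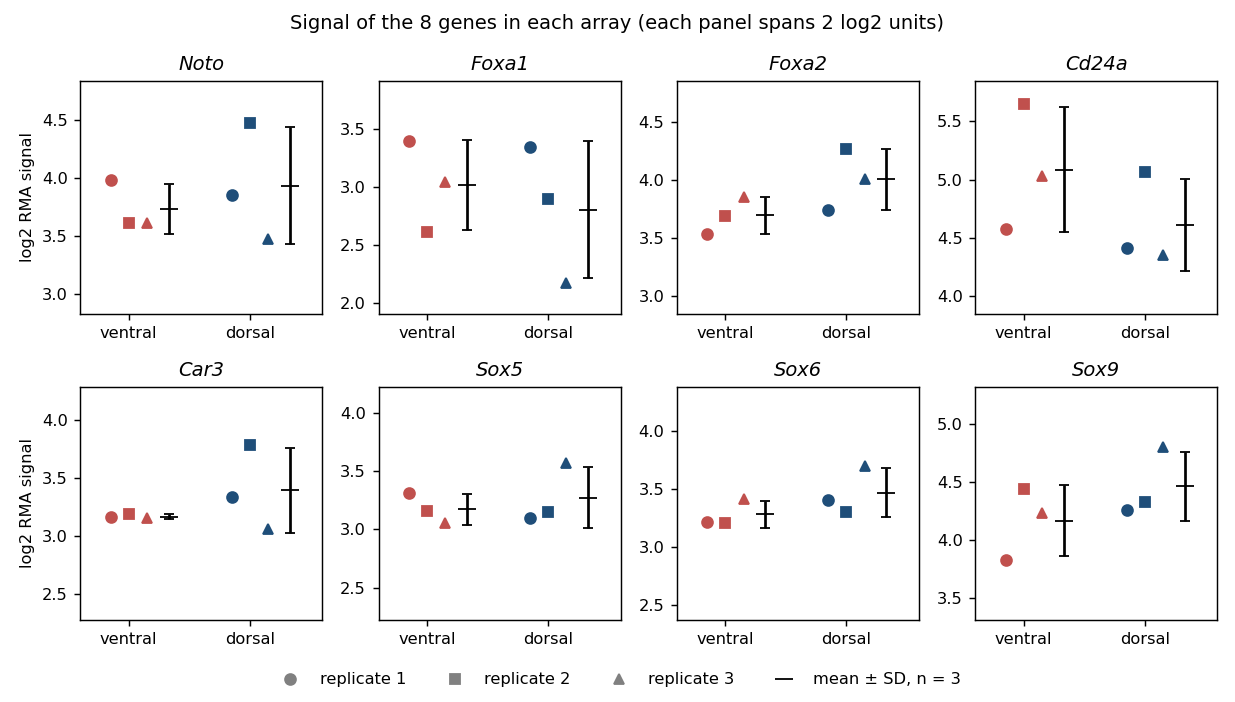
Log2 RMA signal of each gene in the 3 ventral arrays (red, left) and the 3 dorsal arrays (blue, right), with the mean and SD of each region beside the points; the symbol gives the replicate number and each panel spans the same number of log2 units. The regions overlap in all 8 panels, and the highest point is dorsal array 2 for Noto, Foxa2 and Car3 and dorsal array 3 for Sox5, Sox6 and Sox9.

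Car3, a cytosolic carbonic anhydrase found in notochord-derived cells, muscle and fat, was almost constant in ventral tissue. Its log2 signals were 3.16, 3.19 and 3.15 in ventral arrays 1, 2 and 3, against 3.33, 3.78 and 3.06 in the dorsal arrays. Dorsal arrays 1 and 2 lay above all ventral arrays and dorsal array 3 below them. The means were 3.17 ± 0.02 in ventral and 3.39 ± 0.36 in dorsal tissue (SD, n = 3 each), and the difference of -0.23 ± 0.20 (SE) had an adjusted p of 0.705 in limma. It was -0.03 without dorsal array 2 and -0.39 without dorsal array 3.

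Sox9, the factor that commits mesenchyme to cartilage, had log2 signals of 3.83, 4.44 and 4.23 in ventral arrays 1, 2 and 3, against 4.26, 4.33 and 4.80 in the dorsal arrays. The lowest value was ventral array 1 and the highest dorsal array 3, while the 4 others lay between 4.23 and 4.44. The means of 4.17 ± 0.31 in ventral and 4.46 ± 0.30 in dorsal tissue (SD, n = 3 each) differed by -0.29 ± 0.21 (SE), with an adjusted p of 0.630 in limma. Leaving out dorsal array 3 gave -0.12, which was the smallest difference over the single arrays and pairs left out, and leaving out both arrays numbered 2 gave -0.50.

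Sox6, of the SoxD class that lacks an activation domain of its own, had log2 signals of 3.22, 3.20 and 3.41 in ventral arrays 1, 2 and 3, against 3.40, 3.30 and 3.70 in the dorsal arrays. In each of the 3 pairs of equal number the ventral array was the lower one, and ventral array 3 overlapped with dorsal arrays 1 and 2. The difference was -0.19 ± 0.17 (SE) between means of 3.28 ± 0.12 in ventral and 3.47 ± 0.21 in dorsal tissue (SD, n = 3 each), with an adjusted p of 0.702 in limma. Without dorsal array 3 the difference was -0.07.

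Sox5, the partner of Sox6 in the SoxD class, had log2 signals of 3.31, 3.15 and 3.05 in ventral arrays 1, 2 and 3, against 3.09, 3.15 and 3.57 in the dorsal arrays. Dorsal array 3 was alone above the ventral range, and dorsal arrays 1 and 2 lay within it. The difference was -0.10 ± 0.21 (SE; adjusted p 0.875 in limma), and it was 0.05 without dorsal array 3.

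With 3 against 3 arrays the smallest two-sided p of an exact permutation test on 1 gene is 0.10, and for the 8 genes the test gave 0.20 for Foxa2 and between 0.30 and 0.70 for the others. The 95% intervals of all 8 differences lay within 1 log2 unit of 0 on the RMA scale, as they did for 80.1% of all genes, the widest bound being 0.94 for Cd24a. RMA compresses differences between dim signals, so these bounds hold for the signal and not for the transcript.

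**Figure D2:**
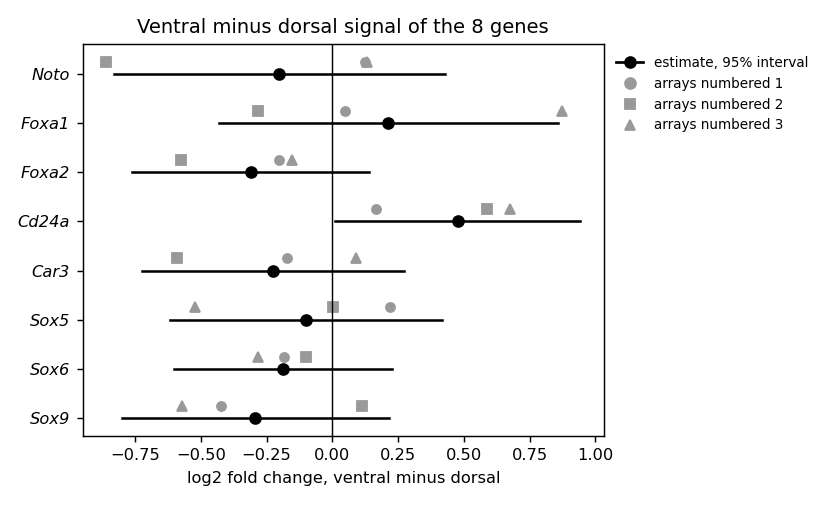
Ventral minus dorsal log2 signal of the 8 genes, with the limma estimate and its 95% interval in black and the difference of the arrays of equal number in grey. The interval of Cd24a, from 0.01 to 0.94, is the only one that does not include 0, and its adjusted p was 0.485.

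The signals were low for most of the set. By their mean over the 6 arrays, Cd24a stood at percentile 94.5 of all genes, Sox9 at 88.5, Foxa2 at 76.4, Noto at 75.8, Sox6 at 56.4, Car3 at 51.7, Sox5 at 49.0 and Foxa1 at 32.5. These are places in the signal range of the array and not an order of transcript levels, since probes differ in their response. Olfactory and vomeronasal receptor genes, 1360 of them, give a picture of dim signal, a comparison chosen after the values were seen. Of these receptor genes 38.4% were brighter than Foxa1, 27.4% than Sox5, 25.7% than Car3, 13.3% than Noto, 13.0% than Foxa2, 7.72% than Sox9 and 3.82% than Cd24a. Detection calls were not used here, so none of the 8 genes was shown to be above background in either region. At these signals, missing the threshold does not show that the regions held equal amounts of notochord or cartilage-forming tissue.

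Different dorsal arrays were highest for most of the notochord genes and for the Sox genes, a pattern noticed after the values were seen. Dorsal array 2 was the highest dorsal array for 4 of the 5 notochord genes, the exception being Foxa1, and the same held for 35.6% of all genes. It was the highest of all 6 arrays for Noto, Foxa2 and Car3, as for 23.1% of all genes. Dorsal array 3 was the highest of all 6 arrays for Sox5, Sox6 and Sox9, as for 22.1% of all genes. Related lists followed this only in part. Dorsal array 2 was the highest dorsal array for 5 of 9 other notochord genes, but also for 6 of 11 sclerotome genes. Dorsal array 3 was the highest dorsal array for 2 of 11 sclerotome genes and for 5 of 20 cartilage matrix genes and Sox targets. The mean log2 signal of the 5 notochord genes was 3.73, 3.75 and 3.74 in the ventral arrays, against 3.74, 4.10 and 3.41 in dorsal arrays 1, 2 and 3. That of the 3 Sox genes was 3.45, 3.60 and 3.57 in the ventral arrays, against 3.58, 3.59 and 4.03 in the dorsal arrays. So the spread among dorsal samples exceeded the distance between the regions for both groups of genes.

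**Figure D3:**
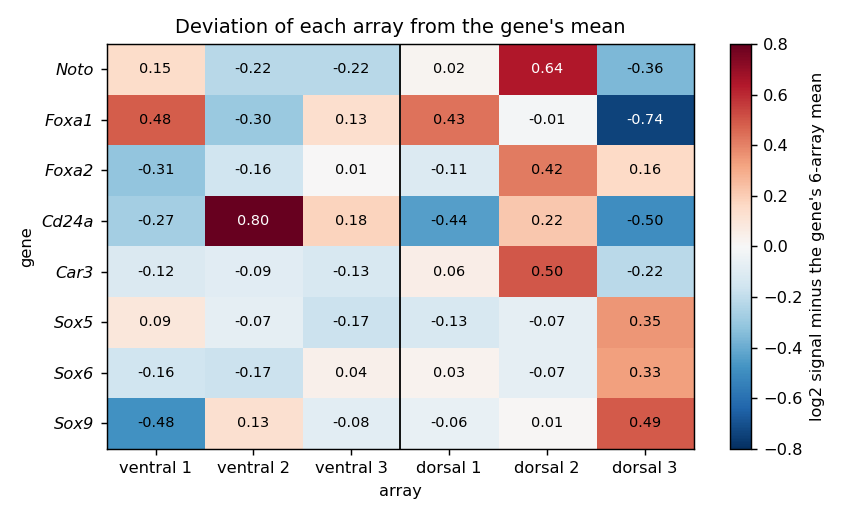
Log2 signal of each array minus the mean of the gene over the 6 arrays, ventral arrays left of the line and dorsal arrays right of it. Noto, Foxa2, Cd24a and Car3 are above their means in dorsal array 2, and Sox5, Sox6 and Sox9 are above theirs in dorsal array 3, where Noto, Foxa1, Cd24a and Car3 are below.

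Over the 6 arrays, which come from only 2 regions, Noto and Car3 had the most similar patterns of the notochord genes (Pearson r = 0.91), while Noto and Foxa2 had an r of 0.42 and Foxa1 and Foxa2 one of -0.46. Sox6 and Sox9 had an r of 0.72, Sox5 and Sox6 0.60, and Foxa1 and Sox9 were opposed at -0.91. Among 3611 other genes (3610 for Cd24a and Sox9) with a mean log2 signal of at least 4, the pattern most like that of Noto was Spag4's (0.985), that of Foxa2 Ctrcos's (0.980), that of Sox9 Selenok's (0.983) and that of Sox6 Rnft2's (0.995). For Car3 it was Grina's (0.986), for Cd24a Coro7's (0.985), for Sox5 Rps19's (0.989) and for Foxa1 Larp4's (0.995). The second were Nat9 for Noto (0.981), Casp2 for Foxa2 (0.978), Cebpzos for Sox9 (0.982), Calcb for Sox6 (0.984), Rbx1 for Car3 (0.977), Ppib for Cd24a (0.980), Mill1 for Sox5 (0.988) and Ssr4 for Foxa1 (0.968). With 6 arrays and this many candidates, high values of r are to be had for any gene, and they describe these arrays only.

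Other notochord genes did not separate the regions either. Of 10 listed, T was not analysed here. Among the 9 measured, 0 passed the threshold, 2 had a positive and 7 a negative difference, and the median was -0.06, as for all genes. That list median was -0.23 without ventral array 3 and 0.03 without dorsal array 2. Shh, the hedgehog ligand secreted by the notochord, had log2 signals of 3.44, 3.49 and 3.54 in the ventral arrays, against 3.40, 3.75 and 3.48 in the dorsal arrays, again with dorsal array 2 highest. Lgals3, a galectin of notochord-derived cells, and Krt19, a keratin of the notochord, had the smallest p of the list, with differences of -0.20 and -0.24 and adjusted p of 0.687 and 0.717 in limma. Dorsal array 2 was the highest dorsal array for 5 of the 9. The hedgehog targets Ptch1, the receptor, and Gli1, the transcription factor, differed by -0.20 and -0.18 (adjusted p 0.748 and 0.795 in limma).

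The floor plate of the neural tube, which lies just above the notochord and shares Foxa2 and Shh with it, gave no gene past the threshold either (0 of 7). Of its genes 6 had a negative and 1 a positive difference, with a median of -0.36, and for 3 the ventral arrays lay wholly below the dorsal ones, as they did for 12.0% of all genes. The median was -0.24 without dorsal array 2 and ranged from -0.44 to -0.22 over the arrays or pairs left out. Ferd3l, a basic helix-loop-helix factor of the floor plate, had log2 signals of 2.59, 2.37 and 2.50 in the ventral arrays, against 3.21, 2.93 and 3.37 in the dorsal arrays, a difference of -0.68 ± 0.17 (SE; adjusted p 0.435 in limma). Ntn1, the guidance cue netrin 1, differed by -0.48 ± 0.18 (SE, adjusted p 0.469 in limma). By mean signal over the 6 arrays, Ferd3l stood at percentile 28.5 of all genes and Ntn1 at 48.8. Neither was shown to be above background. The mean log2 signal of the list was 3.12 to 3.14 in the ventral arrays, where the mean of all genes was 3.32 to 3.36. In the dorsal arrays the list mean was 3.32 to 3.51, against 3.37 to 3.39 for all genes. It lay above the mean of all genes in dorsal arrays 1 and 2 and below it in dorsal array 3 (3.32 against 3.39).

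Cartilage matrix genes and targets of the Sox trio had differences of both signs. Of 20 measured, 0 passed the threshold. A positive difference was found for 7 and a negative one for 13, and 58.0% of all genes had a negative one. The median was -0.12. It was -0.05 without ventral array 2 and -0.19 without ventral array 3, and ranged from -0.23 to -0.03 over the arrays or pairs left out. Col2a1, the type II collagen that Sox9 activates with Sox5 and Sox6, had log2 signals of 3.93, 4.21 and 4.28 in the ventral arrays, against 4.94, 4.80 and 4.07 in the dorsal arrays. Dorsal array 3, in which all 3 Sox genes were highest, was the lowest dorsal array for Col2a1, and the difference was -0.46 ± 0.27 (SE; adjusted p 0.577 in limma). Acan, the cartilage proteoglycan aggrecan, was at 2.48 ± 0.09 in ventral and 2.56 ± 0.04 in dorsal tissue (SD, n = 3 each), a signal that 53.2% of the receptor genes exceeded. The 2 genes with the smallest p were higher in all ventral than in all dorsal arrays, as were 6.74% of all genes: Ucma, a protein of juvenile cartilage, at 4.85, 4.63 and 5.22 in the ventral arrays, against 4.26, 4.31 and 4.40 in the dorsal arrays, and Fgfr3, the FGF receptor of growth cartilage, at 4.65, 4.69 and 4.98, against 4.26, 4.24 and 4.10. Their differences were 0.58 ± 0.19 for Ucma and 0.57 ± 0.19 for Fgfr3 (SE), with adjusted p of 0.460 and 0.462 in limma. The regions were also separate in the other direction for 2 of the 20 genes, as they were for 12.0% of all genes. These 2, named after their values were seen, were Col11a2, a fibrillar collagen chain, at -0.42, and Matn4, a matrilin, at -0.32 (adjusted p 0.513 and 0.561 in limma).

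In the sclerotome list, the mesenchyme in which Sox9 and Sox5 act, 0 of 11 genes passed the threshold, 10 had a negative and 1 a positive difference, and the median was -0.48. The median was -0.32 without dorsal array 2 and ranged from -0.48 to -0.30 over the arrays or pairs left out. The ventral arrays lay wholly below the dorsal ones for 5 of the 11, against 12.0% of all genes. The list mean was 3.62 to 3.71 in the ventral arrays and 3.996 to 4.31 in the dorsal arrays. Twist1, a factor of undifferentiated mesenchyme, had the widest difference of the list, -1.40 ± 0.35 (SE; adjusted p 0.435 in limma), with 4.20, 5.71 and 5.46 in the ventral arrays, against 6.62, 6.37 and 6.57 in the dorsal arrays. Foxc2, a forkhead factor of sclerotome, differed by -0.50 ± 0.17 (SE; adjusted p 0.464 in limma). The 3 Sox genes of the set had the same sign as Twist1 and Foxc2 and smaller differences.

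**Figure D4:**
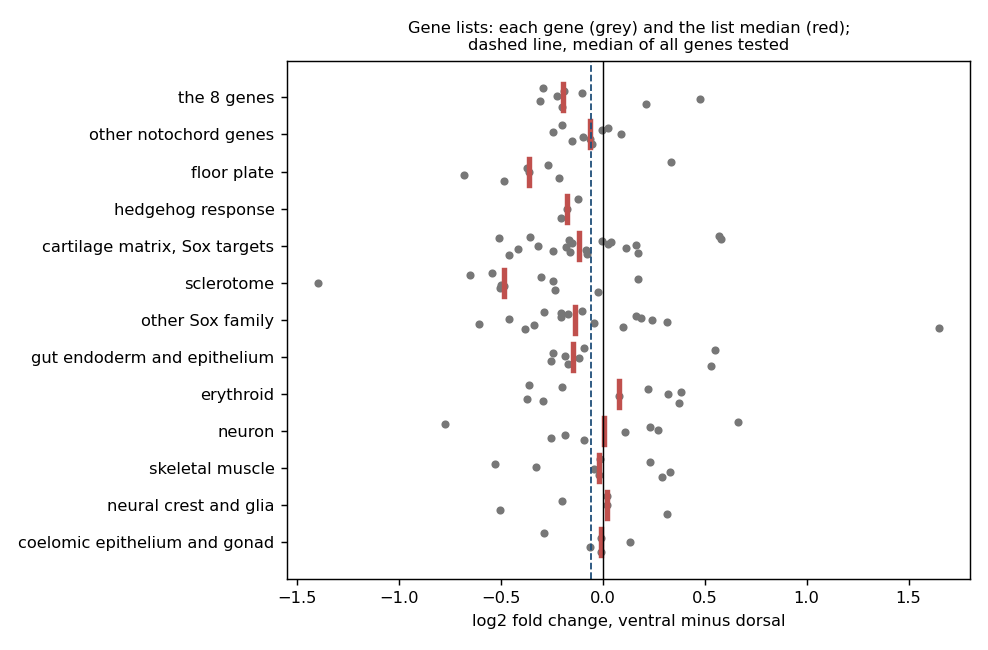
Ventral minus dorsal log2 signal of each gene (grey) in the set of 8 and in 12 other lists, with the list median in red and the median of all genes as a dashed line. The sclerotome and floor plate medians, -0.48 and -0.36, lie farthest below that of all genes (-0.06), and that of the 8 genes is -0.19; the outlying point among other Sox genes is Sox2.

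Close relatives of the members gave no common direction. Sox8 and Sox10, which with Sox9 form the SoxE class, differed by -0.05 and 0.31, and Sox13, the third SoxD gene, by 0.19 (adjusted p 0.934, 0.706 and 0.742 in limma). Over the 16 other Sox genes measured, 0 passed the threshold, 6 had a positive and 10 a negative difference, and the median was -0.14, with -0.05 without ventral array 1 and -0.07 without dorsal array 3. Those with the smallest p were Sox7, an endothelial factor, at -0.61, and Sox12, at -0.46 (adjusted p 0.490 and 0.495 in limma). Foxa3, the third Foxa factor, which is found in gut endoderm, had log2 signals of 4.03, 4.12 and 3.71 in the ventral arrays, against 3.19, 3.71 and 3.37 in the dorsal arrays. Its ventral arrays lay above its dorsal arrays by a narrow margin, and the difference of 0.53 ± 0.19 (SE) had an adjusted p of 0.466 in limma.

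Cell types that share the members' genes were followed beside them. Genes of gut and epithelium, in which Foxa1, Foxa2 and Cd24a are also expressed, had 2 positive and 6 negative differences among 8 measured, with list means of 3.46 to 3.74 in the ventral arrays and 3.49 to 3.73 in the dorsal arrays. The smallest p were those of Cldn6, a tight junction protein of embryonic epithelia (0.55), and of Foxa3, while the epithelial adhesion protein Epcam was at 3.19, 3.20 and 2.92 in the ventral arrays, against 3.45, 3.29 and 3.30 in the dorsal arrays. Neuronal genes had 4 positive and 4 negative differences, with the smallest p for Nefm (-0.77), a neurofilament, and Gap43 (0.67), a growth cone protein, and with list means of 3.15 to 3.38 in ventral and 3.18 to 3.34 in dorsal arrays. Erythroid genes had 5 positive and 4 negative differences, with the smallest p for the red cell factors Klf1 (0.32) and Gata1 (0.38), and with list means of 4.93 to 6.44 in ventral and 5.28 to 6.20 in dorsal arrays. Ermap (-0.36) and the embryonic globins Hbb-y (-0.37) and Hba-x (-0.29), named after their values were seen, had differences of the other sign. The embryonic globin Hbb-bh1, also named after its values were seen, was at 0.38, so the embryonic globins had no common direction. Hba-x ran from 7.08 to 12.11 over the ventral and from 9.41 to 11.12 over the dorsal arrays. Genes of skeletal muscle, in which Car3 is also expressed, had 3 positive and 5 negative differences, with the smallest p for Tnnt1 (-0.53) and Actc1 (-0.33), a troponin and an actin, and with list means of 3.68 to 3.85 in ventral and 3.56 to 3.96 in dorsal arrays. Genes of neural crest and glia, in which Sox5, Sox6 and Sox9 are also expressed, had 3 positive and 2 negative differences, with the smallest p for Tfap2a (-0.51), a crest factor, and Erbb3 (-0.20), a receptor of glial precursors, against 0.31 for Sox10, and with list means of 3.03 to 3.28 in ventral and 3.15 to 3.41 in dorsal arrays. Genes of coelomic epithelium and gonad had 1 positive and 4 negative differences, with the smallest p for the gonadal regulators Nr5a1 (-0.29) and Lhx9 (0.13), and with list means of 3.42 to 3.93 in ventral and 3.55 to 4.03 in dorsal arrays. None of the genes of these lists passed the threshold in limma, and the part of these cell types in the values of the 8 genes was not tested.

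**Figure D5:**
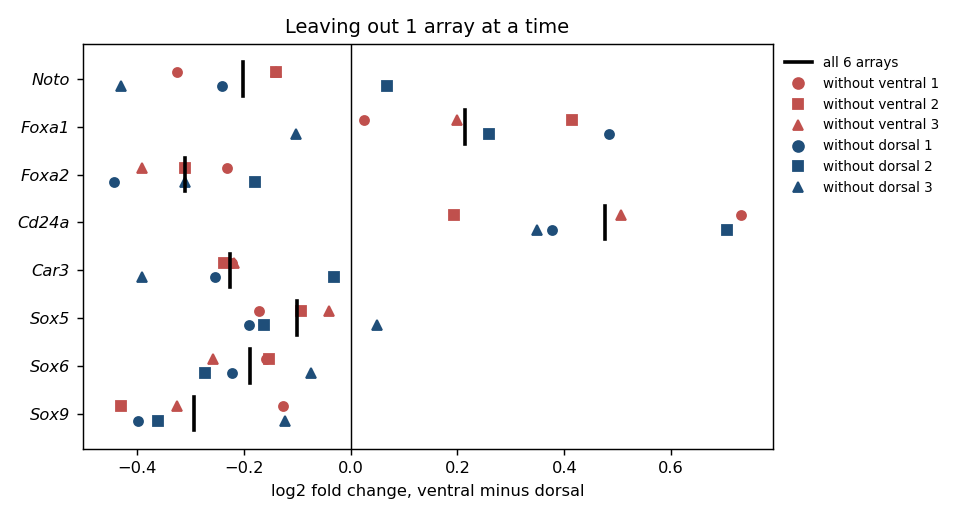
Ventral minus dorsal log2 signal of the 8 genes with all 6 arrays (black bar) and with each array left out in turn (red symbols, a ventral array; blue symbols, a dorsal array). The sign turns for Noto without dorsal array 2 (0.07) and for Foxa1 (-0.10) and Sox5 (0.05) without dorsal array 3, and it holds in each of these fits for Foxa2, Cd24a, Car3, Sox6 and Sox9.

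When 1 array or 1 pair was left out, Foxa2 stayed between -0.44 and -0.18, Cd24a between 0.19 and 0.73, Car3 between -0.39 and -0.03, Sox6 between -0.27 and -0.07 and Sox9 between -0.50 and -0.12. The signs of Noto, Foxa1 and Sox5 depended on the arrays kept, and the values of the other 5 moved by more than 1.5 times in at least 1 of these fits. No fit brought any of the 8 genes past the threshold.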

How the data were processed

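Per the submitters' processing notes, the authors used Affymetrix Expression Console and RMA, with no versions stated. The deposited values are log2 signals, the log base being read from their range. Of 25429 probe sets, 24675 had exactly 1 gene symbol in the platform annotation, and the gene numbers of all 24675 were found in the GRCm38.p6 table; 754 probe sets were unlisted and left out.

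Ventral minus dorsal was tested with limma 3.58.1 in R 4.3.3 (lmFit, eBayes) over all 24675 genes, two-sided, unfiltered, with Benjamini-Hochberg adjustment, a threshold of 0.05 and the replicate number as a block. The labels say both regions came from the same embryos but do not tie equal numbers to an embryo. Deviations from the region means of equally numbered arrays correlated at 0.039, -0.014 and 0.057 across genes, so the numbers did not show a pairing, and the unblocked fit was run beside it. P-values reflect only the spread between the samples at hand, which may be technical, and the number of arrays limits the precision. The procedure was also run on simulated data. No outcome of that run is given here, so no conclusion about these arrays or about differences of the sizes found here is drawn from it.

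The members, the 12 other lists and the naming rule (all members, the 2 genes of smallest p per list, named relatives, the 2 most similar patterns per member) were chosen with earlier results of these data known. Of the listed genes, 8 were not analysed here. Alternatives were the block, centring, loess, dim-gene filters, a variance trend, array weights and arrays left out.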

Additional observations from a re-analysis of the deposited data

How the results depend on the processing

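None of the 8 genes passed the threshold in limma under any of the 17 alternatives, their adjusted p ranging from 0.383 to 0.988. In the 8 alternatives that kept all arrays, none of the 62 member differences changed sign. Changing the block, filtering dim genes or adding a variance trend leaves each difference as it was, so those signs were fixed in advance. Only centring, loess and array weights could have turned a sign. The filter at the median signal left 6 of the 8 genes. Without replicate block the median of the 8 was -0.19 and Cd24a had an unadjusted p of 0.169, and the block changed no call of a member. Leaving out both arrays numbered 2 gave 0.13 for Noto, and leaving out both numbered 3 gave -0.12 for Foxa1 and 0.11 for Sox5. Without dorsal array 2 Noto was at 0.07, and without dorsal array 3 Foxa1 was at -0.10 and Sox5 at 0.05. Leaving out any other array or pair kept the signs of these genes. Over all fits that left out arrays, Noto ranged from -0.43 to 0.13, Foxa1 from -0.12 to 0.48 and Sox5 from -0.26 to 0.11. The median of the 8 ranged from -0.24 to -0.10 over the fits that left out arrays, the smallest without dorsal array 2. The count of all genes past the threshold was 1 without replicate block and 1 with the block as a random effect, against 0 with the block, and ranged from 0 to 5 with arrays left out; the cause was not tested. Centring and cyclic loess moved the median of all genes to -0.02 and -0.00, and that of the 8 genes to -0.15 and -0.17. Probe signal near the array medians limits what can be said of Sox5, Sox6 and Car3, as does signal below them for Foxa1.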

Other observations

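Sox2, a Sox factor of neural and gut progenitors, was singled out after its values were seen. Its log2 signal was 7.61 in ventral array 1, with 2.20 and 2.72 in ventral arrays 2 and 3, against 2.28, 2.57 and 2.73 in dorsal tissue. The gap to the next array was 4.88, whereas no member of the set had a gap above 0.59. Genes in which 1 array stood alone by more than 3 log2 units above the 5 others numbered 19 for ventral array 1, 15 for ventral array 2 and 10 for ventral array 3, against 7, 13 and 7 for dorsal arrays 1, 2 and 3.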
